A study of Gossypium hirsutum with 6 samples.

Results

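In leaves of the virescent mutant of upland cotton (Gossypium hirsutum), 157 well expressed genes were moderately less abundant than in green wild-type leaves. They were taken from a table of 65126 identifiers by a rule on measured values. A member carries a chromosome label of the A or D subgenome, lies outside the D10 identifiers numbered 0184 to 0383, and has a mean of 30 to below 1000 FPKM over all 6 libraries. FPKM, a level per transcript length, counts the fragments on each kilobase of a transcript among 1000000 mapped fragments. The mean log2(FPKM + 1) of a member was lower in virescent leaves by at least 0.58 (1.5-fold) and by less than 2, and its highest virescent library lay below its lowest wild-type library. The virescent and wild-type values themselves chose the members, so the sizes of their falls are given as a description, with no test. Of the genes on the chromosome labels, 4793 had a mean in the same range, and the members were 3.28% of them.

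RNA was sequenced from the first true leaf of the virescent line Yt30, with the genotype label MSmsv1v1 (Virescent mutant), and of green plants labelled msmsv1v1 (WT), in 3 libraries of each. The title calls Yt30 a recessive genic male sterile line, and both labels carry the same v1v1 alleles, so by the labels the groups differ only in MS. Whether v1v1 is correct for the green wild type cannot be told from the labels. Which allele goes with virescence was not tested. Nothing in the labels says whether libraries of a genotype came from separate plants, so the spread between them may be technical, and plant age is not stated. FPKM summed to between 1057345 and 1068010 in the virescent libraries and to between 1019041 and 1048966 in the wild-type libraries, and the number of mapped fragments is unknown.

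A virescent plant forms young leaves that are pale and that green later, as chloroplast development is delayed. In a green leaf, much of the messenger RNA from the nucleus encodes proteins of photosynthesis, of pigment synthesis and of the plastid's own gene expression machinery, which are imported into the chloroplast. Upland cotton is an allotetraploid, so most genes are present as an A and a D copy. Which of these functions the members serve is not given here, because the table holds identifiers alone and 0 of the 157 members matched the reference gene names. For the same reason the leaf label could not be checked against marker genes, and levels of other cell types were not analysed.

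A pair of libraries stood apart among the members. Wild type 2 was the lowest wild-type library in 115 of the 157 members, and virescent 2 was the highest virescent library in 108. Both lay on the side of the other genotype, so the main values of the members are also given without these libraries. Both libraries were picked for this position in the same members. Larger falls and wider gaps without them largely follow from that choice. In leaf RNA, fewer cells of a type and less RNA per cell cannot be told apart.

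**Figure D1:**
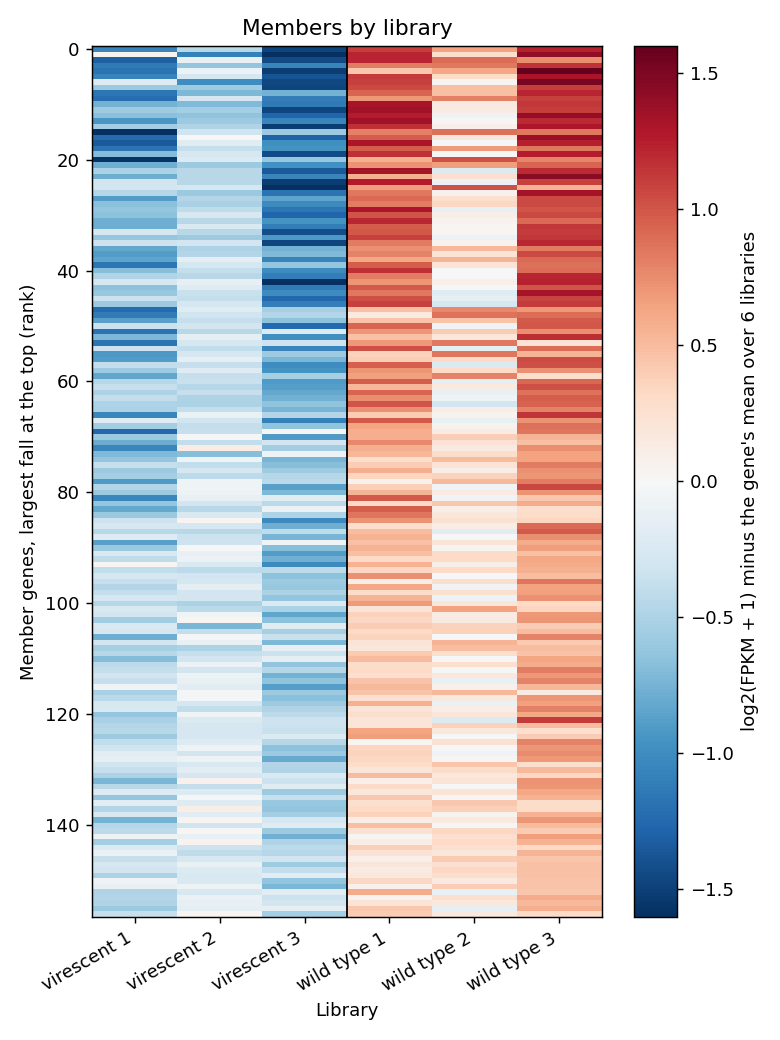
Log2(FPKM + 1) of each of the 157 members (rows, largest fall at the top) in each library (columns), minus the gene's own mean over the 6 libraries. The virescent columns are blue and the wild-type columns red by the rule that chose the genes, and virescent 2 and wild type 2 are the palest columns of their genotypes.

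Together the members held a smaller share of the leaf transcriptome in virescent than in wild-type leaves, as the rule that chose them largely fixed beforehand. They took up 0.681%, 0.849% and 0.659% of the summed FPKM in virescent libraries 1, 2 and 3, against 1.55%, 1.20% and 1.75% in wild-type libraries 1, 2 and 3. Their summed level was 7755 ± 1066 FPKM in virescent leaves and 15539 ± 2936 FPKM in wild-type leaves (SD, n = 3 each), a ratio of 0.499. The lowest wild-type sum, 12495 FPKM in wild type 2, was above the highest virescent sum, 8978 FPKM in virescent 2. The rule allowed no other order, since it asked for no overlap in every member. The median member stood at 33.4 ± 5.0 FPKM in virescent leaves and at 68.4 ± 14.2 FPKM in the wild type (SD, n = 3 each). The sum did not rest on a few genes, since the 5 most abundant members made up 22.2% of it in virescent leaves and 19.5% in the wild type.

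**Figure D2:**
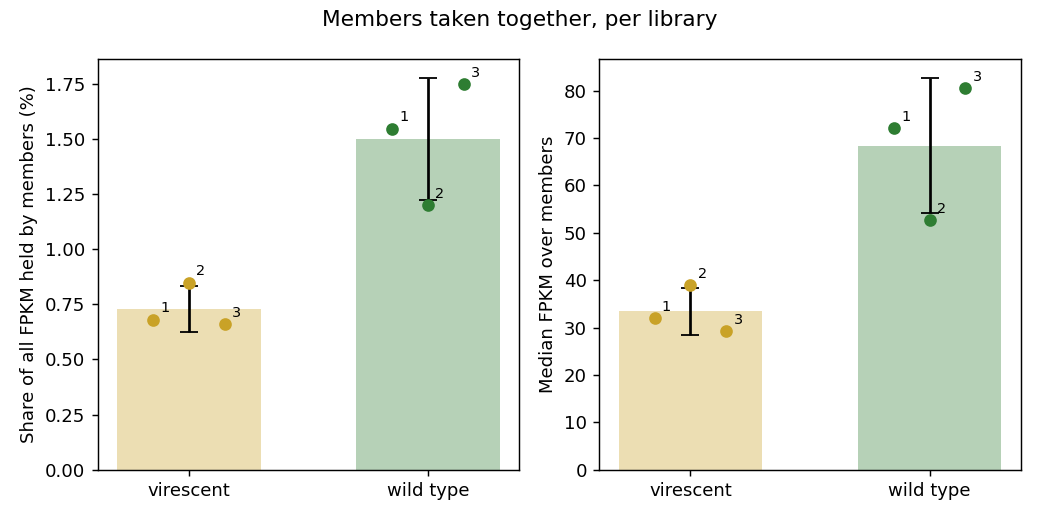
Share of all FPKM held by the 157 members (left) and their median FPKM (right), with bars at the mean, error bars of 1 SD and a numbered point per library. Virescent libraries hold 0.659% to 0.849% of the FPKM in the members, and wild-type libraries hold 1.20% to 1.75%. The rule that chose the members largely fixed this difference.

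The falls were moderate by construction, and they were spread over the range the rule allows. The median difference, virescent minus wild type, was -0.94 on the log2(FPKM + 1) scale, with quartiles of -1.38 and -0.75. A fall of at least 1, that is a halving, was seen in 71 members, and 86 members fell by less. A fall of 1.5 or more was seen in 25. Over all 4793 genes of the same range the median difference was 0.14, and over the 43104 tested genes it was 0.050. With median-ratio scaling of the libraries the median over all tested genes turned to -0.0025, that over the range was 0.080 and that of the 157 members was -1.003.

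Falling genes were the minority at this level of abundance. Every virescent library lay below every wild-type library in 9.31% of the 4793 genes, and above every wild-type library in 32.5%. Over all 43104 tested genes every virescent library lay below in 13.2%, and the share above is not given here. These shares use FPKM without rescaling, and median-ratio scaling lowered the median difference over the range from 0.14 to 0.080. The rule turned round, for genes that rose by 0.58 to below 2 without overlap, picked 410 genes, or 8.55%. A fall of 0.58 or more was shown by 5.80% of the range, and without overlap by 4.15%, which adds 42 genes with falls of 2 or more to the 157. Another 77 genes fell as far as the members on average, but with overlapping genotypes.

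The test across all genes called 99 of the 157 members lower in virescent leaves, and 58 were not called (limma, adjusted p below 0.05). Over all tested genes 4.05% were called lower, and in the same range of abundance 3.13%. Nothing is read from this count, because the rule used the same contrast. The median log2 difference was -1.14 in called members and -0.80 in the others. The calls moved with single libraries, in the members as in all tested genes. Without wild type 1, 5 of the 157 were called (0.302% of all tested genes called lower), and without wild type 3, 17 (0.828%). Without virescent 1 it was 28 (1.31%), without virescent 3 it was 40 (1.99%), and without virescent 2 it was 79 (2.98%). Without wild type 2, 119 members were called (4.95% of all tested genes). With the replicate number as a block 10 were called (0.445%), and without a filter on low genes 40 (1.25%).

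Each library in turn was left out of the choice of genes, and its position was then read. The libraries of the other genotype that it was set against were still chosen by the rule, so the position was partly fixed beforehand: of the 6 places a left-out value can take among the other 5 libraries, 3 (50%) lie beyond all libraries of the other genotype. When the rule was applied to the other 5 libraries, 193 genes met it without virescent 1, and in 182 of them (94.3%) virescent 1 also lay below every wild-type library. The same position was held by virescent 1 in 23.2% of all genes of that range. For virescent 3 the count was 169 of 182 genes (92.9%, against 27.0% of the range). For virescent 2 it was 174 of 241 genes (72.2%, against 19.7%). Of the left-out virescent libraries, virescent 2 was the one least often on the low side. The shares over the range describe unchosen genes and are not the share to be met with no difference. Nor is the 50%, which counts places by order alone, while the rule also asked for a fall of at least 0.58.

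The same was done for the wild-type libraries. Wild type 3 lay above every virescent library in 111 of 116 genes chosen without it (95.7%, against 20.3% of the range). Wild type 1 did so in 140 of 159 genes (88.1%, against 20.1%). Wild type 2 did so in 155 of 249 genes (62.2%, against 17.4%), the lowest share of any left-out library. The number of genes that met the rule was highest when a number-2 library was dropped, and 325 genes met it without both, of which 134 were among the 157.

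**Figure D3:**
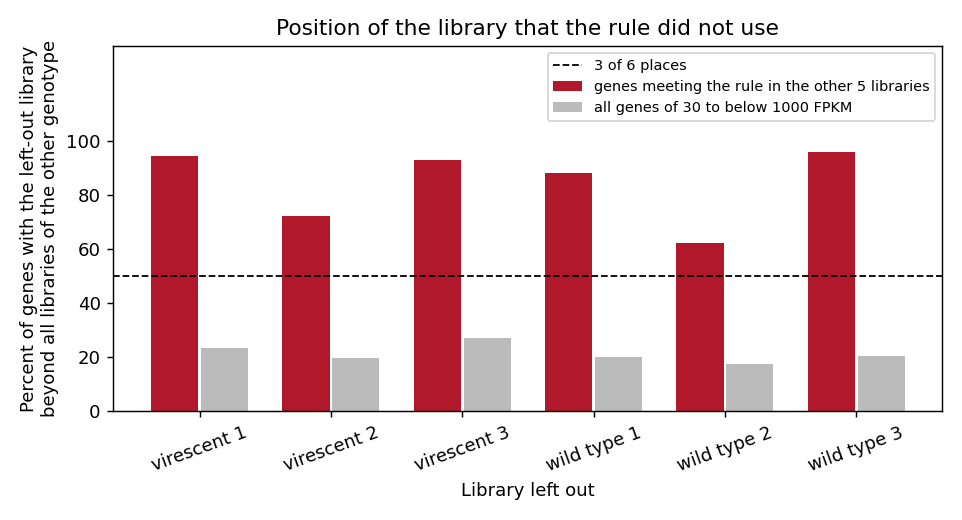
Percent of genes in which a left-out library lay beyond all libraries of the other genotype (virescent below, wild type above), for genes that met the rule in the other 5 libraries (red) and for all genes of 30 to below 1000 FPKM (grey). The red bars run from 62.2% for wild type 2 to 95.7% for wild type 3, and the grey bars run from 17.4% to 27.0%. The broken line marks 50%, the 3 of 6 places that lie beyond the other genotype by order alone. It is not the share to be met with no difference.

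The most abundant member was Gh_D05G3434, on chromosome label D05. Its level was 479.4, 834.2 and 625.7 FPKM in virescent libraries 1, 2 and 3, against 843.1, 925.1 and 1314 FPKM in wild-type libraries 1, 2 and 3. Virescent 2 reached almost to wild type 1, and the genotypes were parted by a factor of only 1.01. Its means were 646 ± 178 FPKM in virescent leaves and 1027 ± 252 FPKM in the wild type (SD, n = 3 each), a log2 difference of -0.68, against -0.94 without both number-2 libraries. It was among the 58 members that limma did not call.

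Only 3 further members averaged 300 FPKM or more, and they differed in how tightly their libraries agreed. These and other genes given by chromosome label alone were singled out after their values were seen. A gene on A08 stood at 227.4, 383.1 and 253.0 FPKM in virescent leaves, against 555.6, 529.0 and 873.0 FPKM in the wild type, the largest fall of the 4 at -1.18 (log2). A gene on D02 stood at 364.9, 360.2 and 291.2 FPKM in virescent leaves, against 649.7, 406.7 and 692.4 FPKM in the wild type, where wild type 2 alone came near the virescent level. A gene on D06 stood at 271.7, 193.6 and 282.2 FPKM in virescent leaves, against 430.0, 416.1 and 428.6 FPKM in the wild type. The D06 gene had nearly equal wild-type libraries, with its lowest virescent value in virescent 2, the library that was highest in most members.

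The largest fall was that of Gh_A02G0320, on label A02, near the lower end of the abundance range. Its level was 12.3, 19.3 and 9.0 FPKM in virescent libraries 1, 2 and 3, against 58.5, 42.2 and 64.2 FPKM in wild-type libraries 1, 2 and 3. The lowest wild-type library was 2.18 times the highest virescent one. The means were 13.6 ± 5.3 FPKM in virescent leaves and 55.0 ± 11.4 FPKM in the wild type (SD, n = 3 each), a log2 difference of -1.98. Without virescent 2 and wild type 2 the difference was -2.43, which is beyond the bound that the rule sets.

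The gap between the genotypes was narrow in most members with all libraries. The lowest wild-type library was a median of 1.25 times the highest virescent library, at least 1.5 times in 32 members, at least 2 times in 8 and less than 1.1 times in 24. Without both number-2 libraries the median was 1.77 times. The gap was then at least 1.5 times in 121 members, at least 2 times in 66 and less than 1.1 times in 1. Leaving out libraries can only widen this gap or leave it unchanged. The widest gap, 2.78 times, was that of a gene on D04. It stood at 38.3, 54.8 and 40.6 FPKM in virescent leaves, against 152.4, 153.7 and 192.0 FPKM in the wild type, with a log2 difference of -1.88. The next widest, 2.40 times, was that of a gene on A09, at 45.0, 51.9 and 39.5 FPKM in virescent leaves, against 129.1, 124.3 and 150.0 FPKM in the wild type. Both genes were far apart between genotypes in every library, unlike the most abundant member.

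At the bounds on the fall, the lower level and the overlap, the nearest genes inside and outside lay close to the bound. They could differ in their other values. The smallest fall inside was -0.586 and the next smaller one outside was -0.578, both without overlap. At the other bound the values were -1.98 inside and -2.01 outside, in genes with means of 34.3 and 83.0 FPKM. The lowest member mean was 30.1 FPKM, against 29.8 FPKM for the nearest gene below. At the upper bound of 1000 FPKM the nearest genes lay far from the bound. No gene that met the rest of the rule had a mean between 837 FPKM and 1659 FPKM. In all, 4 genes of 1000 FPKM or more met the rest of the rule. The narrowest gap inside was 26.03 FPKM in the highest virescent library, against 26.08 FPKM in the lowest wild-type library, and the nearest gene outside had 47.13 FPKM, against 47.10 FPKM.

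Falls were found at all levels of abundance, and the members thinned out toward the top. From 30 to below 50 FPKM there were 78 members, 3.64% of the genes of that class, with a median log2 difference of -0.98. From 50 to below 100 FPKM there were 52 (3.46%, median -0.96), and from 100 to below 300 FPKM there were 23 (2.56%, median -0.83). From 300 to below 1000 FPKM there were 4 of 252 genes (1.59%, median -0.77). Without both number-2 libraries the medians of these 4 classes of members were -1.30, -1.19, -1.11 and -0.99, from low to high. The genes picked by the rule turned round made up 8.03%, 10.3%, 7.47% and 6.35% of the same classes, from low to high. Over the 157 members Spearman's rho between log2 difference and mean FPKM was 0.12, across genes of the same 6 libraries. The rule bounded both values, so nothing is read from this rho.

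**Figure D4:**
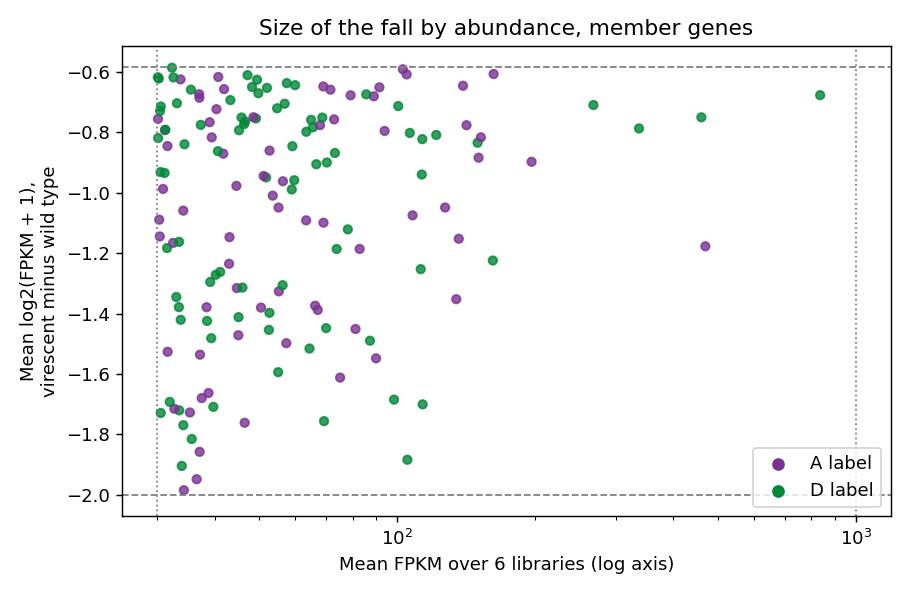
Difference in mean log2(FPKM + 1), virescent minus wild type, against mean FPKM over the 6 libraries (log axis) for the 157 members, coloured by subgenome label, with the bounds of the rule as broken lines. Most points lie between 30 and 100 FPKM, falls of 1.5 or more are found at means of up to 114 FPKM, and the most abundant member lies alone at 837 FPKM.

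The members varied more within a genotype than other genes of their abundance. The median SD of log2(FPKM + 1) was 0.31 among the virescent libraries and 0.34 among the wild-type libraries for the members. For the other 4636 genes of the range it was 0.17 and 0.16. For the 410 genes picked by the rule turned round, with a smaller median change of 0.80 on the log2 scale, it was 0.18 and 0.20. Individual members ranged widely, with SDs of 0.015 to 0.98 in virescent leaves and of 0.026 to 0.86 in the wild type. In 5 members both SDs were below 0.15, with a median log2 difference of -0.77. One of them, on D09, stood at 32.5, 34.4 and 34.96 FPKM in virescent leaves, against 60.1, 54.5 and 61.6 FPKM in the wild type. At the other end, a gene on A06 with the second largest fall (-1.95) stood at 28.2, 12.3 and 6.6 FPKM in virescent leaves, against 64.4, 33.3 and 74.4 FPKM in the wild type. Its virescent values spread more than 4-fold, and virescent 1 nearly reached wild type 2.

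The same libraries were often the lowest or highest of their genotype, but the members showed 20 different orders of the libraries. The commonest order, from low to high, was virescent 3, virescent 1, virescent 2, wild type 2, wild type 1, wild type 3, which was found in 41 of the 157 members (26.1%). Virescent 3 was the lowest virescent library in 100 members, virescent 1 in 55 and virescent 2 in 2. In the other 4636 genes of the range these counts were 2194, 1284 and 1158, so virescent 3 was most often the lowest there too. Wild type 3 was the highest wild-type library in 110 members, wild type 1 in 33 and wild type 2 in 14. In the other 4636 genes these counts were 1477, 1272 and 1887. The median member was lower in wild type 2 than in wild type 3 by 0.56 on the log2 scale, and higher in virescent 2 than in virescent 3 by 0.41. The other genes of the range were higher in wild type 2 than in wild type 3, by a median of 0.032, and higher in virescent 2 than in virescent 3 by 0.089.

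**Figure D5:**
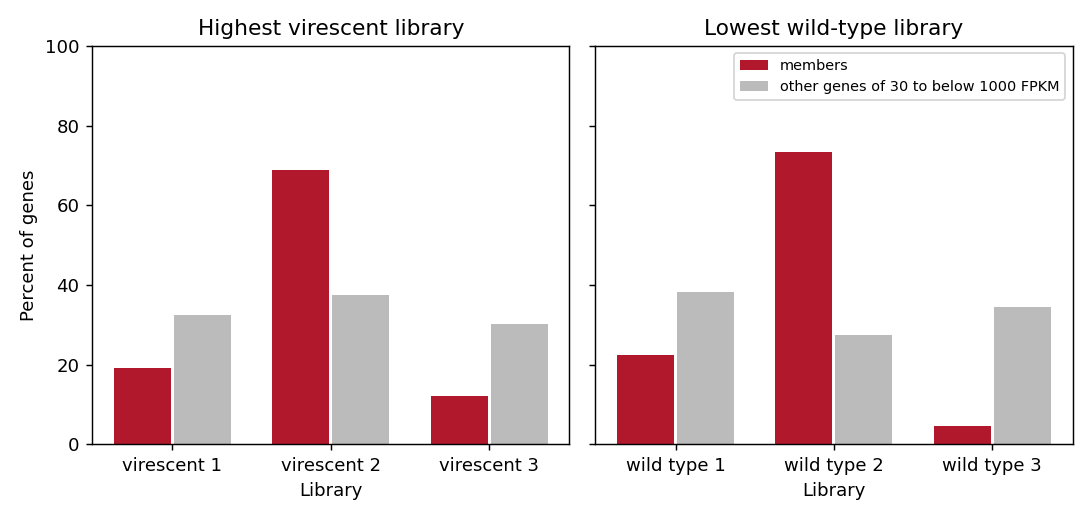
Percent of genes in which each virescent library was the highest of its genotype (left) and each wild-type library the lowest (right), for the members (red) and the other 4636 genes of the range (grey). Virescent 2 is the highest in 68.8% of the members and 37.4% of the others, and wild type 2 the lowest in 73.2% and 27.4%.

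Both number-2 libraries lay well inside the distance between the genotypes. On a scale with the mean of virescent 1 and 3 at 0% and the mean of wild type 1 and 3 at 100%, virescent 2 stood at a median of 23.6% (quartiles 14.4% and 42.1%) over the members, and wild type 2 at 64.1% (quartiles 46.4% and 86.3%). In 73 members (46.5%) virescent 2 was the highest virescent and wild type 2 the lowest wild-type library, against 13.9% of the other genes of the range. Without both libraries the median log2 difference of the 157 members was -1.17, against -0.94 with them. This shift largely follows from picking libraries that lay innermost in these members. The part of leaf stage, of sampling and of library preparation in this was not tested. In the 410 genes that rose, wild type 2 was the highest wild-type library in 62.9%, while virescent 2 was the lowest virescent library in 22.4%. Of the number-2 libraries, only wild type 2 was thus the one most often nearest to the other genotype there. In the 4636 non-members of the range, which include these 410, wild type 2 was the highest wild-type library in 1887. Virescent 2 was the lowest virescent library in 1158 of the 4636.

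Members were grouped by their highest wild-type library, a split made after the values were seen. The 110 members highest in wild type 3 had a median log2 difference of -0.92, the 33 highest in wild type 1 one of -1.06, and the 14 highest in wild type 2 one of -0.97. Limma called 65 of the 110, 21 of the 33 and 13 of the 14 lower, against 4.05% of all tested genes, and nothing is read from these counts either. Virescent 3 was the lowest virescent library in 73 of the 110, in 20 of the 33 and in 7 of the 14. These median falls lay close to that of the whole set, which the bounds of the rule largely fixed beforehand, so nothing is read from it.

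Both subgenomes contributed members. The A labels carried 71 members, or 45.2% (exact binomial 95% interval 37.3% to 53.4%, in which genes count as independent), and they carried 49.1% of all genes of the range. The D labels carried 86. This is 3.01% of the A genes and 3.53% of the D genes of the range. The median log2 difference was -1.05 in A members and -0.87 in D members (-1.32 and -1.12 without both number-2 libraries), and a fall of 1 or more was seen in 37 of the 71 and in 34 of the 86. The corresponding medians over all A and D genes of the range were 0.15 and 0.13. How reads were divided between near-identical A and D copies is not stated, so a fall of one copy may include reads of the other.

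Members were found on all 26 chromosome labels, from 2 on A12 to 12 on D05. Their share among the genes of the range was lowest on A12, at 1.1%, and on D11, at 1.28%. It was highest on D06, at 5.59%, and on A06, at 5.15%. D07, at 1.62%, and A11, at 1.72%, were also low. The other labels of these numbers were A07, at 2.30%, and D12, at 3.76%. D08 held 11 members (4.85%) and had the largest median fall of a D label, -1.31 on the log2 scale. The largest of any label was -1.51, on A09. These shares rest on few genes each and were not tested.

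No members carried neighbouring numbers. The nearest members on a label were 9 numbers apart, the median distance to the next member was 252, and 4 distances were 20 or less. Of the 201 tested genes with the number directly before or after a member, 16 were called lower by limma (7.96%) and 6 higher (2.99%), against 4.05% and 6.30% of all tested genes. Their median log2 difference was -0.035, and their median level was 6.33 FPKM, far below that of the members. The 16 lower neighbours stood beside 15 of the 157 members, so for most members neither neighbour was called lower. No member had the same values as another identifier in all 6 libraries.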

How the data were processed

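The authors deposited a table of FPKM values, per the file headers, with 2 decimals, 65126 identifiers and 1 column for each of the 6 libraries. Neither the aligner nor the counting tool is named in the labels or the file, and the gene models are likewise not given. The build named in the submitters' processing notes is a mouse build and was not used. FPKM is divided by the mapped fragments of a library, so a level also moves with the share of the most abundant transcripts. The depth is unknown, and no counting interval is given.

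Libraries were grouped by their genotype label. The members, the groupings and the tests were chosen with earlier results of these data known. Genes with at least 1 FPKM in at least 3 libraries were tested (43104, all 157 members among them). Values were transformed as log2(FPKM + 1), which understates changes of low genes, and fitted with limma 3.58.1 in R 4.3.3 with genotype as the only term and a mean-variance trend. P-values were adjusted over all tested genes by Benjamini-Hochberg, with a threshold of 0.05. The fit was tested on simulated data with known changes. Members were described with Python 3.11.15 and pandas 2.3.3.

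By rule, 2 identifiers are named, the member with the highest mean and, of the others, the one with the largest fall. Other genes are given by chromosome label. Lists of pathway and cell type genes were to be filled by product description, and 0 identifiers matched the reference table, so none was used. Alternatives were another pseudocount, other filters, 2 rescalings, no trend, a replicate block, libraries left out, and other bounds of the rule.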

Additional observations from a re-analysis of the deposited data

How the results depend on the processing

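The median log2 difference of the genes chosen anew under each alternative stayed within the spread between libraries, which the bounds of the rule largely fix, and the share with an A label stayed within its interval, in every alternative run for them. The fixed 157 moved to a median of -1.17 without both number-2 libraries, which were picked for their inner position in these members. The number of genes that met the rule was 116 to 249 with 1 library left out, with the highest counts without the number-2 libraries, 325 without both of these, and 79 at a mean of at least 50 FPKM. With median-ratio scaling 192 genes met it (155 of the 157 among them). Members called lower by limma, with the rule and the fit both repeated, numbered 6 to 165 with 1 library left out. Of all tested genes, 0.302% to 4.95% were then called lower. The count was 174 without both number-2 libraries (4.79% of all tested genes) and 40 without a filter (1.25%). At a mean of at least 50 FPKM, where the fit is unchanged, 49 of the 79 genes were called (4.05%). With the replicate number as a block 10 were called (0.445%). Over all tested genes, deviations from the genotype means correlated between same-numbered libraries at 0.081, -0.28 and -0.24, so the numbers were not taken as pairs. Between differently numbered libraries the correlations ran from -0.064 to 0.33. They were highest for virescent 2 with wild type 3 (0.33) and virescent 3 with wild type 2 (0.25). What such shared deviations reflect was not tested. Summed levels moved with the number of genes chosen. They were 5719 to 13155 FPKM in virescent and 11524 to 26695 FPKM in wild-type leaves with 1 library left out, 15476 and 32172 FPKM without both number-2 libraries, 5745 and 12369 FPKM at a fall of at least 0.7, 5903 and 11529 FPKM at a mean of at least 50 FPKM, and 12544 and 24499 FPKM with overlap allowed. With median-ratio scaling they were 9564 and 19180 FPKM, and with libraries rescaled to the same sum the virescent level was 9072 FPKM. The cause of these changes was not tested where fewer genes or libraries do not give it. Gh_D05G3434 and Gh_A02G0320 kept the sign of their difference in all refits, which their choice largely fixed beforehand. What the unknown depth limits was not assessed.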
